A study of Sorghum bicolor with 9 samples.

Results

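The 2 genes described here are the sugar transporters SWEET13 (SORBI_3008G094400, chromosome 8, 44672607 to 44674991) and SWEET16 (SORBI_3001G377600, chromosome 1, 66570953 to 66574760). They were followed in leaves of the C4 cereal sorghum (Sorghum bicolor) across 3 levels of water supply. They were chosen by their gene identifiers and are 2 of the 34366 genes of the deposited mRNA table. The choice was made with their levels in drought and control leaves already known. Their differences between drought and control are therefore given as a description, without a test. Plants had a normal water supply (control), a mild drought or a severe drought, and each group has 3 strand-specific libraries of total leaf RNA. The labels name no cultivar, plant age or duration of drought. Nor do they tell whether a group's libraries are of separate plants, so p-values measure only the spread among the samples at hand, which may be technical. The names SWEET13 and SWEET16 come from the closest Swiss-Prot protein in the deposited descriptions, which is a rice protein for both genes. Positions are those of the deposited tables and cover whole gene models, and their build was not given in the sources used here.

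SWEET proteins are small membrane proteins that let sugars pass down their concentration gradient. Members of the group that holds SWEET11 to SWEET15 carry mainly sucrose. In leaves of maize, a close relative of sorghum, SWEET13 proteins release sucrose from the cells around the veins, from where proton-coupled sucrose transporters load it into the phloem. SWEET16 and SWEET17 of Arabidopsis sit in the vacuole membrane and move fructose and other sugars between the vacuole and the cytosol.

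Reads on mRNA genes numbered 28701822 to 36431806 in control, 26675681 to 38711314 in mild drought and 20772692 to 30974767 in severe drought libraries. Levels within a gene are given as CPM, counts scaled by library size after TMM normalization, and levels of different genes are compared as the deposited FPKM, which also divides by transcript length. The 2 scales were not parallel. Over 10594 genes with a mean of at least 5 FPKM, the median log2 difference of severe drought from control was 0.04 in CPM and -0.23 in FPKM. That of mild drought from control was -0.00426 in CPM and -0.0125 in FPKM. Levels of a gene in severe drought thus read lower in FPKM than in CPM, relative to both other groups. The libraries carried leaf markers. The mean of phosphoenolpyruvate carboxylase 3 (SORBI_3010G160700), the carbon-fixing enzyme of C4 mesophyll, was 25398 CPM, and that of a chloroplast NADP-dependent malic enzyme (SORBI_3003G036200), which acts in the bundle sheath around the veins, was 2851 CPM.

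SWEET13 lay lower in every drought library than in every control library. It had 2780, 2130 and 3403 counts in control libraries 1 to 3. Under mild drought the counts were 1102, 1999 and 877, and under severe drought 1060, 1037 and 846. Scaled by library size these were 73.6, 71.9 and 88.8 CPM in control, 34.7, 46.1 and 35.1 CPM in mild drought, and 36.0, 48.3 and 41.7 CPM in severe drought. The highest drought library, severe drought 2, stayed below the lowest control library, control 2. Of all tested genes 6.38% lay below all controls in mild drought and 9.82% in severe drought. Means were 78.1 ± 9.31 CPM in control, 38.6 ± 6.51 in mild drought and 42.0 ± 6.14 in severe drought (SD, n = 3 each). The log2 difference was -1.02 ± 0.18 (SE) for mild drought against control and -0.90 ± 0.18 for severe drought against control, with a level in control 2.02-fold and 1.86-fold that in mild and in severe drought. In FPKM the level averaged 52.2 ± 6.72 in control, 26.3 ± 7.70 in mild drought and 22.6 ± 1.58 in severe drought (SD, n = 3 each), again without overlap between drought and control.

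SWEET16 was detected in all drought libraries and in no control library. Of all tested genes 6.20% lay above all controls in mild drought and 7.64% in severe drought. Its counts were 0, 0 and 0 in control, 11, 62 and 27 in mild drought, and 3, 5 and 14 in severe drought. That corresponds to 0.346, 1.43 and 1.08 CPM in mild drought and to 0.102, 0.233 and 0.690 CPM in severe drought. The transcript was scarce in all libraries, with at most 0.934 FPKM, in mild drought 2. With 0 counts in the 3 controls, a floor of 3 counts over that group allows up to 0.0284 CPM there. The pooled level was 35.2 times that floor in mild drought (100 counts) and 10.9 times in severe drought (22 counts). These ratios take the drought counts as they are, without their own counting error or the spread between libraries. They are therefore not strict lower limits. Without 1 library at a time these ratios lay between 22.4 (without control 3) and 45.9 (without mild drought 1) for mild drought. For severe drought they lay between 5.54 (without severe drought 3) and 16.02 (without severe drought 1). The 14 counts of severe drought 3 were most of the 22 of its group. In mild drought the ratio was 22.6 without control 1. In severe drought it was 6.99 without control 1 and 6.94 without control 3. All of these are over 1.5 times below the values with all libraries. As every control had 0 counts, leaving out a control changes only the reads over which the floor is spread.

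**Figure D1:**
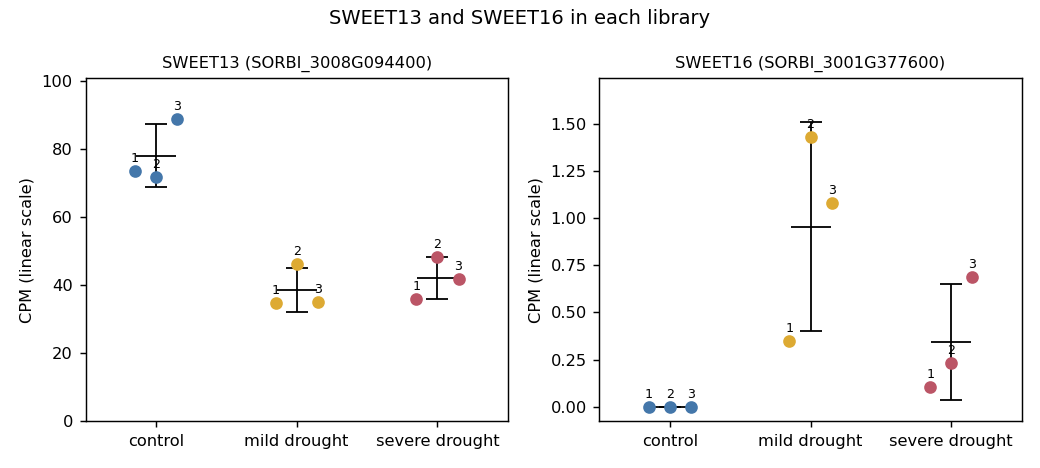
Level of SWEET13 (left) and SWEET16 (right) in CPM on linear axes in control, mild drought and severe drought libraries. Points are libraries with their number, and horizontal lines with bars are mean ± SD (n = 3). For SWEET13 the drought libraries lie between 34.7 and 48.3 CPM and the controls between 71.9 and 88.8 CPM, while SWEET16 is at 0 in the controls and at most at 1.43 CPM.

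Over all 22080 genes tested, edgeR's quasi-likelihood test with Benjamini-Hochberg adjustment, with a threshold of 0.05 on the adjusted p, called 0 genes (0%) in mild drought against control and 0 (0%) in severe drought against control. At an unadjusted p under 0.05 there were 1414 and 1914 genes (6.40% and 8.67%). DESeq2 called 208 genes (0.942%) in mild drought and 337 (1.53%) in severe drought. SWEET16 passed the filter on low counts (0.341 CPM before scaling in at least 3 libraries) through its 3 mild drought libraries and severe drought 3, and through no control.

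The comparison of severe with mild drought was not used to choose the genes, although it shares libraries with those that were. It asks whether the levels moved further as water became scarcer. For SWEET13 no difference passed. It averaged 42.0 ± 6.14 CPM in severe and 38.6 ± 6.51 CPM in mild drought (SD, n = 3 each), and the ranges of the groups overlapped. The log2 difference was 0.12 ± 0.18, with a 95% interval of -0.30 to 0.54 and an adjusted p of 0.996 over all genes in edgeR. In FPKM the difference had the opposite sign (-0.17 ± 0.21 on log2(FPKM + 1), adjusted p = 0.726 in limma), and it was also not called. SWEET16 averaged 0.341 ± 0.309 CPM in severe and 0.952 ± 0.553 CPM in mild drought (SD, n = 3 each). Severe drought 3 lay above mild drought 1, so the groups overlapped here too. Its log2 difference was -1.49 ± 1.03 with a 95% interval of -3.82 to 0.84 (adjusted p = 0.996 in edgeR), an interval that includes a level in severe drought both well below and somewhat above that in mild drought. SWEET16 met the low-count filter through its 3 mild drought libraries, where it was higher, and 1 severe drought library. Its test here was thus not free of selection. Without the filter its log2 difference was -1.52 ± 1.17 (adjusted p = 0.883 in edgeR). In this comparison edgeR called 0 genes (0%), with 815 (3.69%) at an unadjusted p under 0.05, and DESeq2 called 23 (0.104%).

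SWEET13 is not the only gene of that name, nor the most abundant. Among the 23 SWEET genes of the table, 3 on chromosome 8 were described by the same rice protein. They lie within 757.797 kb, with SORBI_3008G094000 (43917195 to 43919961) 752.646 kb and SORBI_3008G094300 (44416458 to 44418843) 253.764 kb away from SORBI_3008G094400. No other gene of the mRNA table lies between the last 2. How the authors' counting placed reads that match several of these copies was not given in the sources used here, so the split between them is uncertain. SORBI_3008G094000 had 595, 557 and 468 FPKM in control, 338, 308 and 431 FPKM in mild drought, and 516, 442 and 434 FPKM in severe drought. It was the most abundant SWEET gene, holding 74.3% ± 5.52 of the summed FPKM of all SWEET genes in control, 66.4% ± 11.5 in mild drought and 76.9% ± 2.49 in severe drought (SD, n = 3 each). SORBI_3008G094300 had 3.27 to 5.63 FPKM in control, 1.496 to 3.96 in mild drought and 3.08 to 7.71 in severe drought.

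The other copies had no call in any comparison, where edgeR called 0% of all tested genes. SORBI_3008G094000 had 579, 464 and 838 CPM in mild drought, against 986, 993 and 799.5 CPM in control (log2 -0.56 ± 0.27, adjusted p = 0.794 in edgeR), with mild drought 3 above control 3. In FPKM, by contrast, all its mild drought libraries (308 to 431) lay below all controls (468 to 595), so the overlap depends on the scale. In severe drought it had 997, 1001 and 932 CPM, which overlapped with the control libraries (log2 0.08 ± 0.27, adjusted p = 0.967 in edgeR). In FPKM its level in severe drought averaged 464 ± 45.1, against 540 ± 65.6 in control (SD, n = 3 each), so the sign of that difference depends on the scale. Severe drought lay above mild drought in all 3 libraries for this copy on both scales, without passing the test (log2 0.64 ± 0.27, adjusted p = 0.996 in edgeR). SORBI_3008G094300 stood at 9.16 ± 4.25 CPM in severe drought and 3.99 ± 1.61 CPM in mild drought (SD, n = 3 each; log2 1.20 ± 0.43, adjusted p = 0.996 in edgeR), and in FPKM these groups overlapped. Its log2 difference from control was -0.74 ± 0.43 in mild and 0.46 ± 0.43 in severe drought (adjusted p = 0.848 and 0.835 in edgeR).

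SORBI_3008G094400 made up a smaller part of the 3 copies in severe drought than in control. Its share of their summed FPKM was 7.83%, 7.62% and 11.2% in control, 6.39%, 10.1% and 4.55% in mild drought, and 3.91%, 5.20% and 4.83% in severe drought. The severe drought libraries all lay below the controls, while mild drought overlapped with both. The share contains the gene that was chosen for its lower level in drought and is given without a test. Among all SWEET genes SORBI_3008G094400 was the 2nd most abundant by FPKM in each control library. It ranked 4 or 5 in mild drought and 3 in each severe drought library. Summed over the 3 copies, the level was 1011 ± 98.2 CPM in control, 669.5 ± 186 CPM in mild drought and 1028 ± 41.1 CPM in severe drought (SD, n = 3 each), and the sum follows the abundant copy.

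**Figure D2:**
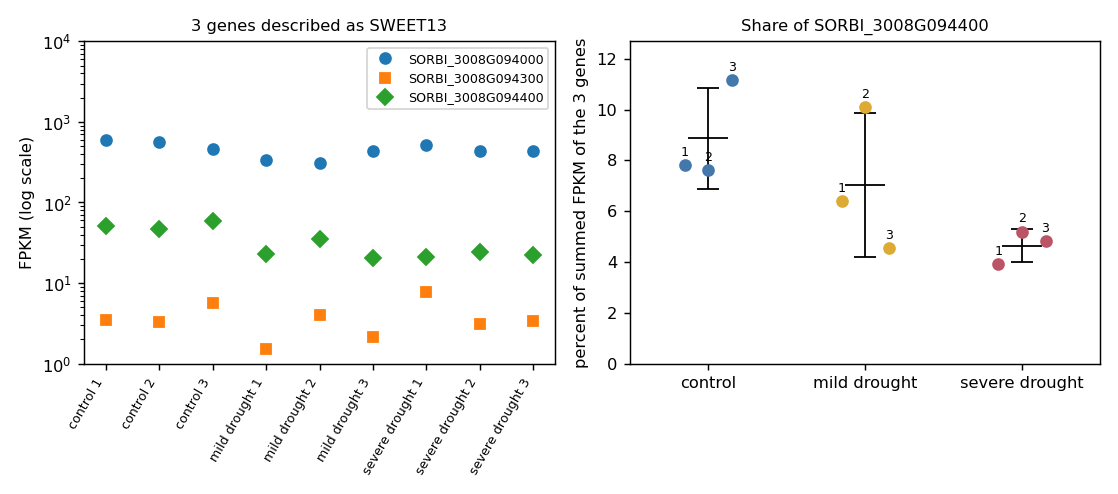
Left, FPKM on a log axis of the 3 genes described as SWEET13 in each library, with a symbol per gene. Right, percent of their summed FPKM held by SORBI_3008G094400 in each group, where numbered points are libraries and lines with bars are mean ± SD (n = 3). SORBI_3008G094000 is the highest of the 3 in all libraries, and the share of SORBI_3008G094400 is 3.91% to 5.20% in severe drought and 7.62% to 11.2% in control.

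The differences of the other SWEET genes had both signs, and edgeR called none of them, beside 0% of all tested genes. Of the 21 other SWEET genes 13 passed the filter on low counts. The 8 that did not pass had 0 to 126 counts over all 9 libraries, and their highest value was 1.83 FPKM, of a gene described as SWEET3b (SORBI_3003G015200) in mild drought 2. In mild drought against control 9 of the 13 were above 0 and 4 below, with a median log2 difference of 0.15, beside 0.02 over all tested genes. In severe drought against control 7 were above and 6 below 0 (median 0.08, beside -0.02 over all tested genes). In severe against mild drought 5 were above and 8 below 0 (median -0.13, beside -0.03). At an unadjusted p under 0.05 in edgeR there were 3 of 13 in mild drought against control, 0 in severe drought against control and 3 in severe against mild drought, where the shares over all genes were 6.40%, 8.67% and 3.69%. Groups that did not overlap in CPM were seen for 2 higher genes and 1 lower in mild drought against control. Of all tested genes 6.20% lay higher and 6.38% lower there. In severe drought against control there were 2 higher and 0 lower, beside 7.64% and 9.82% of all tested genes. In severe against mild drought there were 3 higher and 0 lower. The last are SORBI_3008G094000, SORBI_3008G094300 and SWEET4 (SORBI_3004G136600), beside 2.99% of all tested genes that lay higher and 4.83% that lay lower, and in FPKM only SORBI_3008G094000 kept this separation.

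SWEET4 (SORBI_3004G136600, chromosome 4, 35757216 to 35760686) had mild drought libraries below all controls on both scales. In rice, SWEET4 carries glucose into developing grains. It had 45.2, 48.9 and 44.5 CPM in mild drought, against 63.9, 65.0 and 70.3 CPM in control (log2 -0.52 ± 0.15, adjusted p = 0.603 in edgeR). In severe drought it had 54.5, 71.6 and 60.6 CPM, which overlapped with the control (log2 -0.09 ± 0.15, adjusted p = 0.913 in edgeR). In FPKM its severe drought libraries (33.0 to 36.9) lay below the controls (42.8 to 48.2), so this overlap depends on the scale.

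SWEET6b (SORBI_3003G213000) and SWEET3b (SORBI_3009G080900) lay above all controls in mild drought. SWEET6b had 14.6, 25.0 and 16.8 CPM there, against 10.98, 9.83 and 10.8 CPM in control (log2 0.84 ± 0.25, adjusted p = 0.614 in edgeR). In severe drought it had 11.9, 16.1 and 17.4 CPM, also above all controls (log2 0.52 ± 0.25, adjusted p = 0.611 in edgeR), while in FPKM these groups overlapped. SWEET3b had 78.1, 107 and 65.9 CPM in mild drought, against 43.7, 51.5 and 65.6 CPM in control (log2 0.65 ± 0.36, adjusted p = 0.841 in edgeR), and its groups overlapped in FPKM. SWEET2b (SORBI_3003G269300), of a group that includes a vacuolar transporter in Arabidopsis, averaged 75.9 ± 5.40 CPM in control, 77.4 ± 27.1 CPM in mild drought and 74.9 ± 17.9 CPM in severe drought (SD, n = 3 each). The SWEET1a gene SORBI_3009G143500 averaged 33.0 ± 9.38 CPM in control, 47.0 ± 24.4 CPM in mild drought and 48.5 ± 18.7 CPM in severe drought (SD, n = 3 each), with overlapping groups. None of these was called by edgeR, beside 0% of all tested genes.

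**Figure D3:**
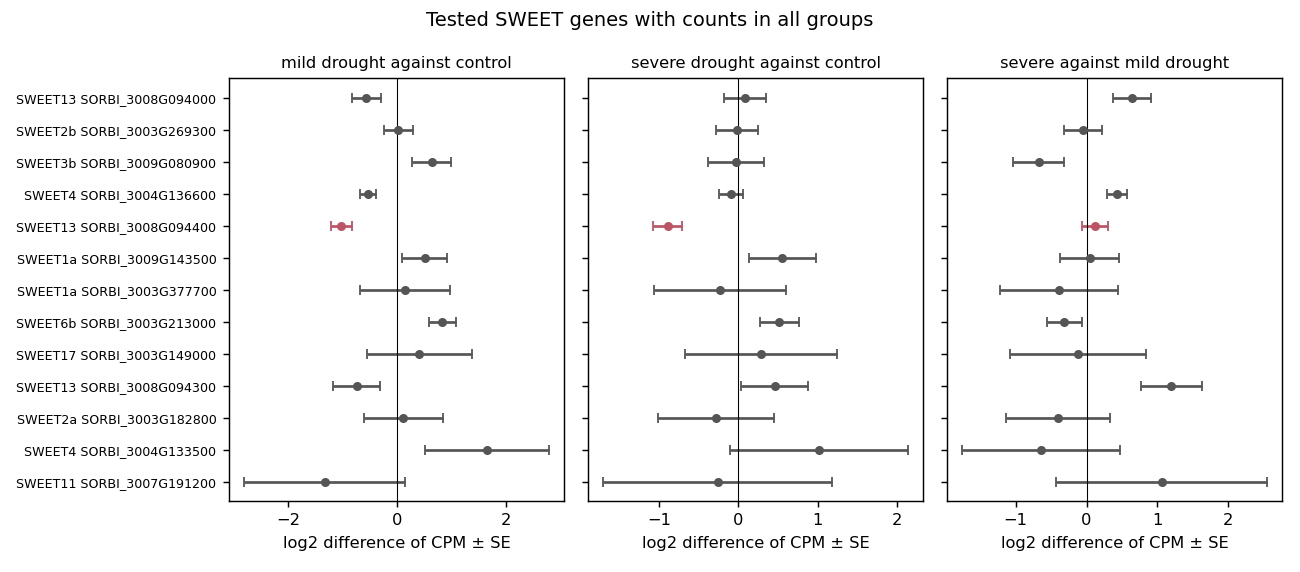
Log2 difference of CPM ± SE from edgeR for the 13 tested SWEET genes that had counts in all groups, for both drought levels against control and for severe against mild drought, ordered by mean CPM with the highest at the top. SORBI_3008G094400 is in red, at -1.02, -0.90 and 0.12, and SWEET16 and a SWEET15 gene, with no count in the controls, are left out.

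Mild drought 2 was the highest library for 7 of the 13 other tested SWEET genes, as it was for 20.1% of all tested genes, and also for SWEET16. A gene described as SWEET15 (SORBI_3004G157100, chromosome 4, 49817844 to 49821068), whose Arabidopsis namesake is known from senescing leaves, had all its mild drought counts there. It had 0, 0 and 0 counts in control, 0, 522 and 0 in mild drought, and 6, 27 and 16 in severe drought. Its pooled level in severe drought was 24.2 times the control floor of 3 counts, without the counting error of its own counts. With 1 library left out the ratio ranged from 15.5 (without control 3) to 36.3 (without severe drought 1). The ratio was 15.6 without control 1 and 15.6 without severe drought 2. Leaving out a control again changed only the floor. In mild drought the gene rested on mild drought 2 alone and was at 0 without it. DESeq2 called it in both comparisons with control (adjusted p = 4.67e-06 and 7.36e-05), while in edgeR the adjusted p was 0.718 and 0.619. A second SWEET4 gene (SORBI_3004G133500) had 19.5 CPM in mild drought 2 and 1.13 and 1.24 CPM in the other mild drought libraries, against 0.912 to 4.88 CPM in control. SWEET17 (SORBI_3003G149000), a vacuolar fructose transporter in Arabidopsis, had 35.5 CPM in mild drought 2, against 5.26 and 2.28 CPM in the other mild drought libraries. SWEET1a (SORBI_3003G377700) had 49.7 CPM there, against 4.66 and 8.44 CPM. SWEET2a (SORBI_3003G182800) had 12.8 CPM there, against 3.15 and 1.28 CPM. Without this library the pooled level of SWEET16 in mild drought was 0.669 CPM, and with it 0.999 CPM. SWEET13 was at 46.1 CPM in mild drought 2, the highest of its group.

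**Figure D4:**
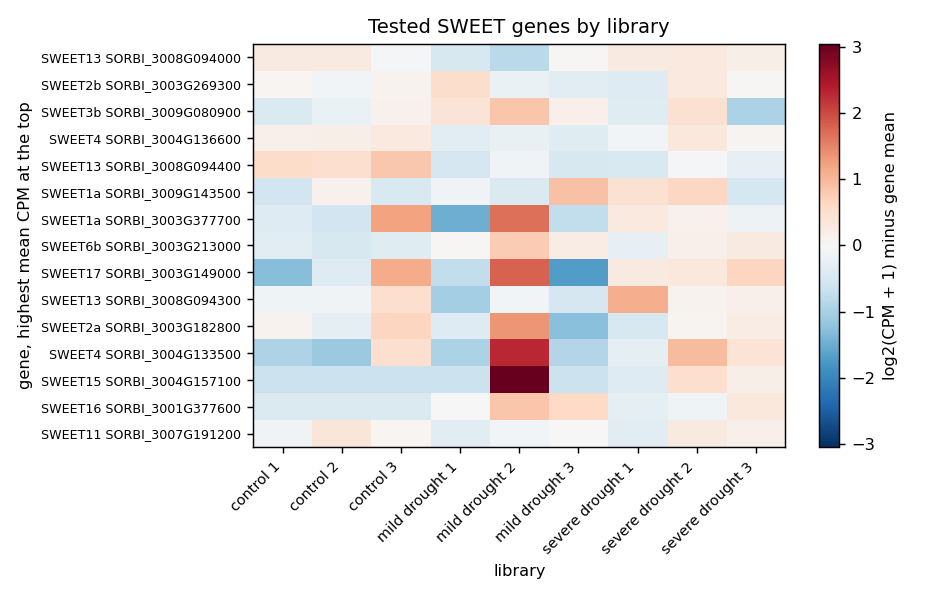
Heat map of log2(CPM + 1) minus the gene mean for the 15 tested SWEET genes (rows, highest mean CPM at the top) in the 9 libraries (columns). Red is above and blue below the mean of the gene. The column of mild drought 2 holds the highest value of 8 rows, SWEET16 included.

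Levels in bulk leaf depend on the mix of cells as well as on each cell, and fewer cells of a type and less RNA per cell cannot be told apart here. The summed level of 11 bundle sheath genes was 4533 to 5174 CPM in control, 3077 to 5124 in mild drought and 3968 to 5487 in severe drought. That of a phloem list of 11 genes, which are SUT1 and 10 plasma membrane ATPases and thus include a family not restricted to phloem, was 1432 to 1957, 1247 to 1626 and 1194 to 1860 CPM in the same order. Both overlapped between drought and control, while the severe drought libraries of 11 mesophyll genes (50562 to 93422 CPM) lay above the controls (34834 to 43370), with 24748 to 61873 in mild drought. For 15 chlorophyll a-b binding proteins of green leaf the sums were 11540 to 47592 CPM in control, 9231 to 31424 in mild drought and 16328 to 36981 in severe drought, with 1 gene at 0 in all libraries. For 38 guard cell and epidermis genes they were 614 to 1054, 528 to 1106 and 905 to 1144 CPM. These sums are dominated by a few abundant genes. Gene by gene, 13 of the 14 tested green leaf genes were below 0 in mild drought against control (median log2 -0.46) and 10 were above 0 in severe drought against control (median 0.32). In severe against mild drought all 14 were above 0 (median 0.53). Of 10 tested mesophyll genes, 6 were above and 4 below 0 in severe drought against control (median 0.29). At an unadjusted p under 0.05 in edgeR there were 3 of 10 tested bundle sheath genes in mild drought against control and 4 in severe drought against control, in both directions, beside 6.40% and 8.67% of all tested genes. DESeq2 called 1 bundle sheath gene in each of these comparisons, higher in drought, beside 0.942% and 1.53% of all tested genes. The part of these cells in the levels of SWEET13 and SWEET16 was not tested.

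Genes with profiles most like those of SWEET13 and SWEET16 were ranked by Pearson's r of log2 CPM over the 9 libraries. SWEET13 and SWEET16 were both chosen with their differences between drought and control known. Genes ranked by likeness to either share its difference by construction, and the values are descriptions. Among 11097 genes with a named function and at least 5 CPM, the 5 highest were genes described as sulfofructose kinase (SORBI_3007G211800, r = 0.957), WAT1-related protein At5g64700 (SORBI_3002G322800, r = 0.939), IQ domain-containing protein IQM1 (SORBI_3003G193800, r = 0.912), cysteine-rich receptor-like protein kinase 10 (SORBI_3002G329100, r = 0.911) and lectin-domain receptor kinase SIT2 (SORBI_3002G025700, r = 0.908). The median r over all these genes was -0.00180. IQM1 had 72.8 ± 11.5 CPM in control, 35.5 ± 14.2 in mild drought and 30.8 ± 2.82 in severe drought, and the WAT1-related gene had 22.1 ± 2.77, 10.04 ± 4.03 and 10.5 ± 0.680 CPM (SD, n = 3 each). With Spearman's rho in place of r, 0 of these 5 were among the first 5, so the ranking depends on the measure.

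For SWEET16 the ranking was among 14839 genes of at least 0.5 CPM. Of the 5 highest, 3 were common plant regulatory factor 1 (SORBI_3003G244100, r = 0.970), a bZIP protein, KUA1 (SORBI_3009G072200, r = 0.967) and the MYB-like factor ODO1 (SORBI_3010G106601, r = 0.962). The others were the splicing factor SR45 (SORBI_3003G433500, r = 0.963) and zinc finger CCCH domain-containing protein 2 (SORBI_3009G072100, r = 0.950). Common plant regulatory factor 1 had 5.82 ± 1.63 CPM in control, 24.5 ± 6.32 in mild drought and 14.9 ± 6.72 in severe drought. KUA1 had 13.9 ± 2.42, 46.1 ± 13.6 and 38.3 ± 18.3 CPM, and the CCCH protein gene 56.8 ± 6.12, 301 ± 168 and 225 ± 63.6 CPM (SD, n = 3 each). With Spearman's rho 2 of the 5 stayed among the first 5. The 9 points share 3 controls without a count of SWEET16, and its other counts are small.

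**Figure D5:**
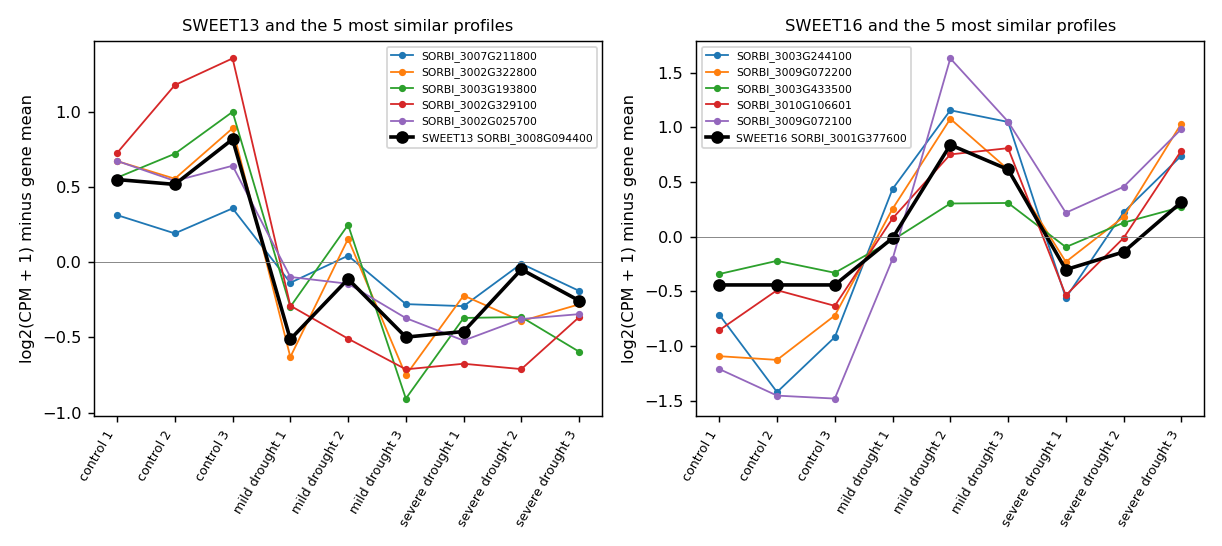
Profiles of SWEET13 (left) and SWEET16 (right) in black with the 5 genes of highest Pearson's r in color, as log2(CPM + 1) minus the gene mean in each of the 9 libraries. Lines join libraries for reading only. The 5 genes beside SWEET13 lie above their mean in the 3 controls, and those beside SWEET16 lie below it there.

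On the chromosome, no other gene of the mRNA table lies within 50 kb of SORBI_3008G094400, and 17 lie within 50 kb of SWEET16. Of these 13 were tested, and edgeR called 0 in each comparison, with 1 at an unadjusted p under 0.05 in mild drought against control, 3 in severe drought against control and 1 in severe against mild drought, beside 6.40%, 8.67% and 3.69% of all tested genes. DESeq2 called 1 in severe drought against control, beside 1.53% of all tested genes. It is SORBI_3001G377300, which has no named function in the deposited description. It lies 11265 bases before SWEET16. Its level was 1.77, 0.236 and 2.40 CPM in control, 2.80, 15.3 and 10.9 CPM in mild drought, and 21.3, 21.8 and 84.2 CPM in severe drought. All drought libraries lay above all controls (log2 4.83 ± 1.00 for severe drought against control, adjusted p = 0.294 in edgeR and 1.03e-05 in DESeq2). Mild drought 1 (2.80 CPM) was close to control 3 (2.40 CPM). Beside this gene, 6.20% of all tested genes lay above all controls in mild drought and 7.64% in severe drought. The nearest gene before SWEET16, SORBI_3001G377500, averaged 19.8 ± 10.8 CPM in control, 22.3 ± 11.1 in mild drought and 47.6 ± 41.2 in severe drought (SD, n = 3 each). No lncRNA transcript carries the identifier of SWEET16 or of SORBI_3008G094400. Within 10 kb of SWEET16 lies TCONS_00013243, named for the gene SORBI_3001G377400, with 31, 41 and 23 counts in control, 50, 0 and 0 in mild drought and 29, 56 and 18 in severe drought. None lies within 10 kb of SORBI_3008G094400.

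Other steps of sucrose handling were read from name-based lists. In none of them was a gene called by edgeR in any comparison, beside 0% of all tested genes. At an unadjusted p under 0.05 there were 1 sucrose synthase and 1 invertase in mild drought against control, 1 sucrose synthase, 2 invertases and 4 monosaccharide transporters in severe drought against control, and 0 genes in severe against mild drought. The shares over all tested genes were 6.40%, 8.67% and 3.69% in these comparisons. Of 6 sucrose transport proteins, which carry sucrose together with protons, 4 were tested. All 4 were below 0 in mild and in severe drought against control (medians -0.10 and -0.24), and 1 lay below all controls in severe drought, as did 9.82% of all tested genes. The most abundant, SUT1 (SORBI_3001G488700), had 727, 627 and 643 CPM in control, 522, 711 and 754 CPM in mild drought, and 655, 569 and 498 CPM in severe drought, with overlapping groups. Its log2 difference from control was -0.01 ± 0.23 in mild drought and -0.21 ± 0.23 in severe drought (adjusted p = 0.998 and 0.859 in edgeR). SUT1 averaged 216 FPKM over all libraries, beside 454 for SORBI_3008G094000, 33.7 for SORBI_3008G094400 and 0.232 for SWEET16.

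Sucrose-phosphate synthase and phosphatase make sucrose in the leaf, and all 6 of their genes were tested. Against control, 1 of the 6 was above 0 in mild drought and 5 in severe drought, with medians of -0.21 and 0.35. Probable sucrose-phosphate synthase 5 (SORBI_3005G089600) had 488, 495 and 425 CPM in control, 460, 205 and 712 CPM in mild drought, and 672, 838 and 624 CPM in severe drought. Its severe drought libraries lay above the controls, without passing (log2 0.60 ± 0.40, adjusted p = 0.726 in edgeR), and in FPKM these groups overlapped. In CPM 3 of the 6 genes lay above all controls in severe drought, beside 7.64% of all tested genes. In severe against mild drought all 6 were above 0 (median 0.56). There 2 of them lay above all mild drought libraries, beside 2.99% of all tested genes. Of 5 sucrose synthases, which split sucrose reversibly, 3 were above 0 in mild and 3 in severe drought (medians 0.11 and 0.33). Sucrose synthase 1 (SORBI_3010G072300) averaged 63.7 ± 10.996 CPM in control, 62.1 ± 24.8 in mild drought and 80.0 ± 23.4 in severe drought (SD, n = 3 each).

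Invertases split sucrose into glucose and fructose, and 6 of 8 were tested, with medians of -0.14 in mild and -0.09 in severe drought. In severe drought against control DESeq2 called 1 of them, beside 1.53% of all tested genes. That gene is a mitochondrial neutral/alkaline invertase (SORBI_3001G391600), which is named here after its values were seen. It averaged 32.1 ± 2.86 CPM in severe drought and 21.1 ± 1.59 CPM in control (SD, n = 3 each; log2 0.61 ± 0.16, adjusted p = 0.0340 in DESeq2 and 0.391 in edgeR). The most abundant, cytosolic invertase 1 (SORBI_3004G255600), averaged 67.7 ± 17.4 CPM in control, 94.8 ± 40.8 in mild drought and 78.3 ± 25.1 in severe drought. Of 58 monosaccharide and polyol transporters 42 were tested, with 27 below 0 in mild and 27 in severe drought (medians -0.15 and -0.27). A polyol transporter 5 gene (SORBI_3001G469600), the most abundant of them, reached 2520 CPM in mild drought 2, with 852 and 795 CPM in the other mild drought libraries, against 417 to 1320 CPM in control.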

How the data were processed

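The authors deposited read counts and FPKM values per gene and per lncRNA transcript for 9 leaf libraries, with 1 column per library, per the file headers. HISAT2 2.0.4, STAR and StringTie 1.3.3b are named, without roles, per the submitters' processing notes, and no genome build was named in the sources used here. Counts of the 34366 genes of the deposited mRNA FPKM table, out of 44775 entries, were tested with the quasi-likelihood test of edgeR 4.0.16 (R 4.3.3) after filterByExpr and TMM scaling. All 9 libraries were in 1 fit without covariates, and p-values were adjusted over the 22080 genes tested. SE is the log2 difference divided by the square root of F, and intervals are at 95%. DESeq2 1.42.0 and limma 3.58.1 on log2(FPKM + 1) were alternatives, beside other scalings and filters, each library left out and a replicate block. The code was tested on simulated data. The common biological coefficient of variation was 0.503, so the spread between libraries set the precision, except for the few counts of SWEET16. Lists were built from Swiss-Prot names in the deposited descriptions. The 2 genes and the lists were chosen with earlier results of these data known.

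Named were the 2 chosen genes, SWEET genes above 1 CPM or beside SWEET13, and genes within 50 kb. Also named were the 5 most similar profiles, the most abundant gene of each list and lncRNA transcripts within 10 kb. Profiles were compared on log2 CPM with a prior count of 2. Neighbours and SWEET genes not given singly are in the counts.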

Additional observations from a re-analysis of the deposited data

How the results depend on the processing

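SWEET13 kept its sign against control under all alternatives run. It was chosen with this difference known, and its drought and control libraries did not overlap on either scale, so the sign could hardly change. When 1 library was left out, its log2 difference lay between -1.16 and -0.91 in mild drought and between -1.01 and -0.79 in severe drought, and on log2(FPKM + 1) it was -1.17 in severe drought. The FPKM scale, on which the median gene read lower in severe drought, reversed the difference of SWEET13 between severe and mild drought to -0.17, and leaving out libraries gave 0.00287 to 0.267. SWEET16 was 0.61 in mild and 0.19 in severe drought on log2(FPKM + 1), where the pseudocount is near or above its level, and between 5.44 and 6.84 in severe drought with 1 library left out in the count fit, whose value for a gene at 0 in control depends on the prior count. In severe drought against control with only the 2 groups in the fit, SWEET16 failed the low-count filter and has no value. DESeq2 called 208 genes in mild and 337 in severe drought against control, with 1 other SWEET gene each, and 23 between severe and mild drought. limma on FPKM called 2 genes in mild drought against control, the fit of only the 2 groups called 2 in severe drought against control, and leaving out libraries gave 0 to 1 in each of these comparisons (1 without mild drought 3). The cause of these differences was not tested.

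With the replicate number as a block, SWEET13 was at -1.03 and -0.91 against control and 0 genes were called in each comparison. Same-numbered libraries of different groups correlated between -0.374 and 0.371 in their deviations from group means. Of the 9 libraries 3 were closest to one of their own number. With 3 libraries per group these values cannot tell whether same-numbered libraries share a block, and the labels give only the number. Depth limits SWEET16, with at most 62 counts in a library.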
